A study of Mus musculus with 8 samples.

Results

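Transcripts that mark T cells, natural killer (NK) cells, myeloid cells, granulocytes and erythroid cells were followed through RNA-seq libraries of sorted B cells. The 40 genes were taken by symbol from the 24746 genes of the deposited count table. They comprise 13 T cell, 10 NK cell, 6 myeloid (macrophage and monocyte), 7 granulocyte and 4 erythroid markers, and all 40 were found. RNA was sequenced from bone marrow cells of 8 mice aged 10 to 12 weeks, labelled as B1a B cells obtained by FACS, while the series text names pro-B cells. The 4 controls carried the genotype miR-15a/b+/+ Vav-Cre. The 4 dKO mice carried the genotype miR-15a/bfl/fl Vav-Cre, a notation for loxP-flanked alleles of both miR-15/16 clusters. Controls and dKO mice alike carry Vav-Cre, a transgene driven by a promoter active throughout the blood system. T, NK, myeloid, granulocyte and erythroid cells of dKO mice thus carry the floxed alleles and Cre as B cells do. How the sort was gated is not stated in the labels.

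T cells are defined by the CD3 chains and the kinases LCK and ZAP70, which pass on the signal of the T cell receptor. NK cells carry activating and inhibitory lectin-like receptors and, like CD8 T cells, store granzymes and perforin. Macrophages make lysozyme and Fc receptors, neutrophils store antimicrobial proteins in granules, and erythroid cells make globins. Bone marrow holds all of these cell types beside B cells.

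The miRNAs targeted in dKO mice share 1 seed, bases 2 to 8, shown in capitals because the dKO genotype is defined by them (RefSeq, GRCm38.p6).
miR-15a-5p: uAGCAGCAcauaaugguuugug
miR-15b-5p: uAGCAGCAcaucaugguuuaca
miR-16-5p: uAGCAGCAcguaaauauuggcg
A match to the seed in a 3′ UTR, TGCTGCT or GCTGCTA, stood in the longest annotated 3′ UTR of 4 of the 40 genes (10%), against 28.1% of 10407 tested genes with such a UTR. These shares were not matched for UTR length, so they do not show that the markers lack sites. Among the 40 the length ran from 56 bases in Camp to 4997 in Bcl11b. Of the 40 genes, 6 were not tested between genotypes. The 4 genes were Bcl11b, Klrk1, Tbx21 and Csf1r, and the sites of the first 3 are shown because they hold the letters the seed pairs with.
Bcl11b site: gtgtgggggggTGCTGCTtttttg
Klrk1 site: ttggttgatcaTGCTGCTtctagg
Tbx21 site: cacgaacctggTGCTGCTtctgac
The log2 fold changes of these genes between dKO and control were 0.28 ± 0.47 for Bcl11b, 0.86 ± 0.60 for Klrk1, −1.25 ± 0.68 for Tbx21 and −0.25 ± 0.86 for Csf1r (SE), with edgeR adjusted p of 0.90, 0.68, 0.56 and 0.96. Matches therefore stood in genes with positive and with negative values, and no difference passed.

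Of 4 motifs searched on both strands, matches to 2 are shown in the promoters of 2 T cell and 2 NK cell markers whose levels moved together across libraries, picked after the matches were known. The RefSeq sequence is of GRCm38.p6 and runs from 250 bases before the annotated start to 50 bases after it. In Cd3e and Cd3d the capitals mark GAGGAA or its reverse TTCCTC, the core bound by PU.1 and other ETS factors. In Nkg7 and Gzma they mark TGTGGT or its reverse ACCACA, the core bound by RUNX factors.
Cd3e promoter, chr9:45009562-45009861 on the minus strand: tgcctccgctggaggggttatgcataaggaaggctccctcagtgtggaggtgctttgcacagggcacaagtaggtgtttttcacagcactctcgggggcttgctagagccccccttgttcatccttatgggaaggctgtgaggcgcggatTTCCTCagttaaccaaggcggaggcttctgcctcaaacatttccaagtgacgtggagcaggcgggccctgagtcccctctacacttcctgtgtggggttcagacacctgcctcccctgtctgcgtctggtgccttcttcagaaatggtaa
Cd3d promoter, chr9:44981536-44981835 on the plus strand: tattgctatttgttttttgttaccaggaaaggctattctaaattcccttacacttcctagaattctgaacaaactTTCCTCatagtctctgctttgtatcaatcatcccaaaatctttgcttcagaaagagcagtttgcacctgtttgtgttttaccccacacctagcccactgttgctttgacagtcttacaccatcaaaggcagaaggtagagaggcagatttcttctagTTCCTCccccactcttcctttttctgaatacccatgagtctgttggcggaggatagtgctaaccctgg
Nkg7 promoter, chr7:43436888-43437187 on the plus strand: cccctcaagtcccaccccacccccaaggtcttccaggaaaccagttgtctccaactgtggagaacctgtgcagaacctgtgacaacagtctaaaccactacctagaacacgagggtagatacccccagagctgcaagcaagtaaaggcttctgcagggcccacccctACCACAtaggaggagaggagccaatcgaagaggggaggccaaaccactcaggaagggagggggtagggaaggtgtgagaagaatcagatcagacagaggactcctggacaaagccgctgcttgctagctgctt
Gzma promoter, chr13:113100932-113101231 on the minus strand: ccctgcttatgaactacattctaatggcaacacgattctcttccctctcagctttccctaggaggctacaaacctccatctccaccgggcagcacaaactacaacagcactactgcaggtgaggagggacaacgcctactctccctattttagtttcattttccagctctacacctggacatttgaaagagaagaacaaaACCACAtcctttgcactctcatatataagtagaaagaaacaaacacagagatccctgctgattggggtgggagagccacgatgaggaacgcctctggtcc
The first match base lay 100 bases before the start of Cd3e, 175 and 18 bases before that of Cd3d, 83 before Nkg7 and 50 before Gzma. RefSeq promoters of 33 of the 40 genes were searched, with 39 promoters in all since some genes have several starts. TGTGGT or its reverse stood in 8 of 10 promoters of NK markers, 3 of 15 of T, 1 of 4 of myeloid, 2 of 7 of granulocyte and 1 of 3 of erythroid markers, and 16.8% of all 32851 promoters. The NK promoters come from 9 genes, and the 2 of Ncr1 overlap. GAGGAA or its reverse stood in 9 of 15 T, 4 of 10 NK, 2 of 4 myeloid and 4 of 7 granulocyte promoters, none of 3 erythroid ones and 28.3% of all promoters. The 2 myeloid promoters with it are overlapping windows of 1 gene, Fcgr3. The C/EBP-like letters TTGCNNAA stood in 10 of the 39 promoters and 10.8% of all, and the GATA core AGATAA in 5 of 39 and 11.2% of all, reverses included. These matches describe letters in the window only.

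Dleu2, the long noncoding RNA that holds miR-15a in an intron, was at 12.7, 25.01, 13.4 and 20.7 CPM in controls 1 to 4 and at 92.05, 111, 72.2 and 85.4 CPM in dKO 1 to 4, higher in every dKO library (log2 fold change 2.33 ± 0.24 (SE), edgeR adjusted p = 0.0065). The miRNA genes themselves had no count in any library, so their deletion cannot be read from these counts. Smc4, which holds miR-15b, was at 71.3, 164, 138 and 133 CPM in controls 1 to 4 and at 144, 161, 126 and 105 CPM in dKO 1 to 4 (log2 fold change 0.08 ± 0.23 (SE), edgeR adjusted p = 0.94). Totals ran from 25565090 to 34954230 counts, so that 3 counts correspond to 0.0854 to 0.111 CPM, that is counts scaled to a common library total (TMM). That limit covers counting error only. Cd79a, a B cell receptor subunit, was high throughout, at 11978 to 15877 CPM. The 40 genes together took 0.0778% to 0.554% of the counts of a library, and Lyz2 was the most abundant of them in every library. Of the 40 genes, 38 had a count in at least 1 library, and 27 had a mean of at least 1 CPM over the 8 libraries. In bulk libraries, fewer cells of a type and less RNA per cell cannot be told apart. Nothing in the labels says how the libraries were batched.

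Between libraries of 1 genotype, the highest summed level exceeded the lowest 2.64-fold among controls and 1.81-fold among dKO libraries for T markers, and 10.5-fold and 2.74-fold for NK markers. For myeloid markers it was 9.64-fold and 5.17-fold, for granulocyte markers 11.7-fold and 10.9-fold, and for erythroid markers 5.20-fold and 1.98-fold. The 13 T cell markers together stood at 208, 300.02, 114 and 239 CPM in controls 1 to 4 and at 217, 313, 173 and 314 CPM in dKO 1 to 4. The 10 NK markers stood at 58.5, 188, 17.9 and 119 CPM in controls 1 to 4 and at 95.6, 121, 67.1 and 184 CPM in dKO 1 to 4. Control 3 was lowest for both, and control 2, dKO 2 and dKO 4 were the 3 highest for both. The 6 myeloid markers stood at 2939, 533, 1661 and 5133 CPM in controls 1 to 4 and at 1036, 2168, 419 and 1060.4 CPM in dKO 1 to 4, with control 4 highest and dKO 3 lowest. Most of this sum was Lyz2 in every library. The other 5 myeloid markers stood at 63.9, 26.2, 91.7 and 94.6 CPM in controls 1 to 4. In dKO 1 to 4 they stood at 46.3, 64.95, 28.8 and 60.8 CPM. Without Lyz2, control 2 was thus lowest, and the spread was 3.62-fold among controls and 2.25-fold among dKO libraries. The 7 granulocyte markers stood at 60.1, 12.9, 7.39 and 86.7 CPM in controls 1 to 4 and at 15.7, 7.20, 78.6 and 23.7 CPM in dKO 1 to 4. Here control 1, control 4 and dKO 3 were high and the other 5 libraries low. Thus dKO 3 was lowest for the myeloid sum with Lyz2 and high for the granulocyte sum. The genotypes overlapped for every lineage. Among single genes with a mean of at least 1 CPM and a count in every library, the highest library exceeded the lowest 8.32-fold in the median of 22 markers and 2.02-fold in the median of all such genes.

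**Figure D1:**
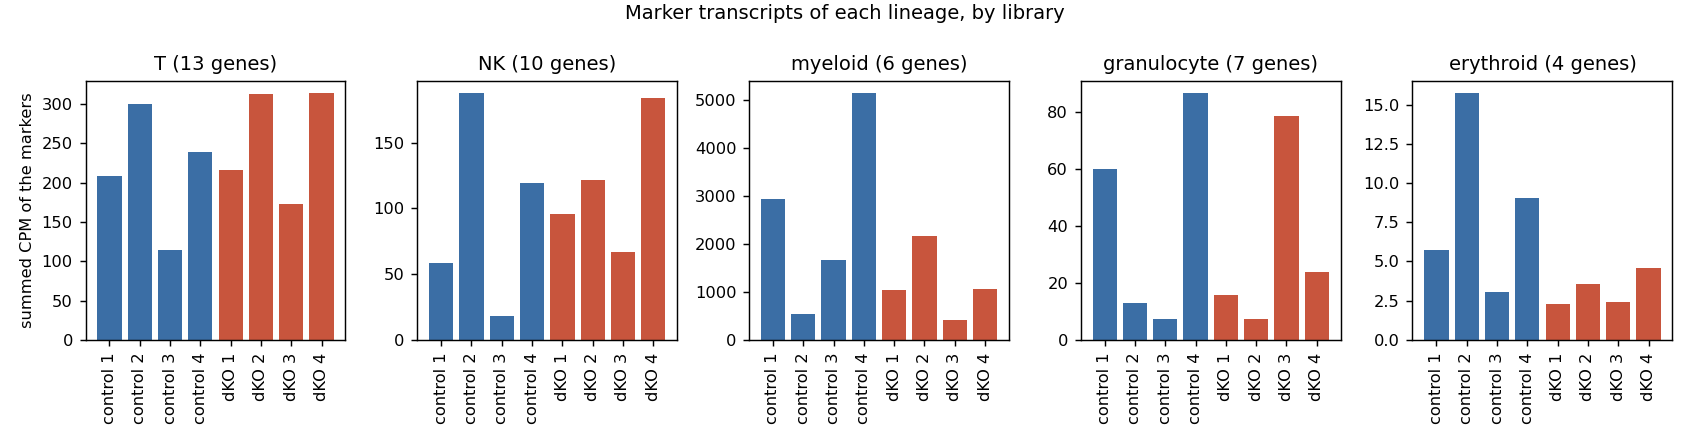
Summed CPM of the markers of each lineage (linear axis, each panel with its own scale) in the 4 control (blue) and 4 dKO (red) libraries, 1 bar per library with no error bar. T and NK sums were lowest in control 3. The myeloid sum, most of it Lyz2, was highest in control 4 at 5133 CPM, and granulocyte sums were high in control 1, control 4 and dKO 3.

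Among the T cell markers, the CD3 chains kept nearly fixed proportions for one pair and not for another. Cd3e, the signalling chain CD3 epsilon, was at 7.72, 12.2, 2.67 and 11.8 CPM in controls 1 to 4 and at 7.48, 12.2, 5.56 and 12.3 CPM in dKO 1 to 4. Control 3 was the lowest library and the genotypes overlapped (log2 fold change 0.12 ± 0.43 (SE), edgeR adjusted p = 0.96). Cd3d, the delta chain, was at 52.3, 67.6, 14.8 and 55.05 CPM in controls 1 to 4 and at 46.3, 69.4, 32.3 and 83.7 CPM in dKO 1 to 4. It put the 8 libraries in the same order as Cd3e, and the ratio of Cd3d to Cd3e counts lay between 4.65 and 6.79. Cd3g, the gamma chain, was at 92.4, 121, 69.8 and 82.4 CPM in controls 1 to 4 and at 79.95, 119, 68.97 and 105 CPM in dKO 1 to 4. It varied less, 1.76-fold between the highest and lowest library, and its ratio to Cd3e was 26.1 in control 3 and 6.96 to 12.4 in the other 7. Per kilobase of annotated exons (union of all GENCODE M21 transcripts), mean levels were 29.0 CPM for Cd3d, 28.2 for Cd3g and 2.20 for Cd3e.

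Co-receptor and signalling genes were mostly lowest in control 3. Cd8b1, the CD8 beta chain, was at 18.4, 23.96, 5.98 and 30.3 CPM in controls 1 to 4 and at 29.6, 35.7, 21.7 and 48.3 CPM in dKO 1 to 4. Control 2 and control 4 lay within the dKO range (log2 fold change 0.78 ± 0.43 (SE), edgeR adjusted p = 0.58). Cd8a, the alpha chain, had 4 counts in control 3 and 86 to 242 counts in the other 7 libraries. Its mean level was 1.23 CPM per kilobase, below the 18.02 of Cd8b1. Cd4, the co-receptor of helper T cells, had a mean of 0.812 CPM (0.201 CPM per kilobase). Lck, the kinase bound to CD4 and CD8 and also known from B-1 cells, was at 15.6, 29.8, 11.1 and 24.2 CPM in controls 1 to 4 and at 27.2, 41.9, 26.1 and 30.02 CPM in dKO 1 to 4 (log2 fold change 0.63 ± 0.28 (SE), edgeR adjusted p = 0.46). Lat, the adaptor phosphorylated by ZAP70, ranged from 1.13 CPM in control 3 to 16.4 CPM in control 2. Zap70 itself was low, with no count in controls 1 and 3 and at most 0.965 CPM. Cd247, which encodes the zeta chain, had a range of 3.02-fold. It shares 56.4% of its exonic length with Pou2f1 on the opposite strand in GENCODE M21 (GRCm38), and its counts are uncertain because no source used here says whether strand was used. The transcription factor genes were low. Tcf7 lay between 4.15 and 8.45 CPM, Bcl11b between 0.765 and 2.22 CPM, and Gata3 between 0.219 and 2.26 CPM.

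NK and cytotoxic markers were mostly lowest in control 3. Nkg7, a granule protein of NK cells and cytotoxic T cells, was at 44.7, 137, 12.2 and 91.9 CPM in controls 1 to 4 and at 72.5, 90.4, 52.3 and 161 CPM in dKO 1 to 4. Control 3 was lowest, and dKO 4 and control 2 were highest. Klrd1, the CD94 receptor chain, was at 7.50, 10.6, 3.17 and 10.1 CPM in controls 1 to 4 and at 10.3, 13.1, 4.02 and 8.10 CPM in dKO 1 to 4. Gzma, granzyme A, was at 1.17, 23.4, 0.985 and 8.85 CPM in controls 1 to 4 and at 2.79, 5.05, 3.23 and 5.92 CPM in dKO 1 to 4. Control 2 stood above the rest for Gzma and also for Gzmb, granzyme B, at 5.12 CPM against at most 1.29 CPM in any other library. Klrk1, the activating receptor NKG2D, ranged from 0.352 CPM in control 3 to 6.79 CPM in dKO 2. Ncr1, the NKp46 receptor by which NK cells are defined, had no count in control 1 and 0.141 to 2.96 CPM elsewhere. Prf1, perforin, had a mean of 0.685 CPM, and the T-box factors Tbx21 and Eomes had means of 0.833 and 0.243 CPM.

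Klrb1c, the NK1.1 receptor gene, was the 1 marker whose genotypes did not overlap. It was at 0.146, 0.639, 0 and 0.733 CPM in controls 1 to 4 and at 1.56, 2.56, 1.85 and 0.919 CPM in dKO 1 to 4, from 4, 19, 0 and 25 counts in the controls and 55, 69, 54 and 27 in the dKO libraries. The difference did not pass over all genes tested (log2 fold change 2.15 ± 0.82 (SE), edgeR adjusted p = 0.36), and it rested on few counts. Klrb1c shares 13.9% of its exonic length with the gene model Gm44511 on the same strand. Of all genes tested, the genotypes did not overlap in 6.96%, and the dKO libraries were the higher ones in 4%, so 1 of 34 tested markers is no larger a share than the background.

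The myeloid markers split into a pair that moved in step and others that did not. Lyz2, lysozyme M of macrophages and neutrophils, was at 2875, 507, 1569 and 5039 CPM in controls 1 to 4 and at 989.9, 2103, 390.3 and 999.6 CPM in dKO 1 to 4. Fcgr3, a low-affinity Fc receptor, was at 49.6, 7.51, 25.5 and 66.6 CPM in controls 1 to 4 and at 17.4, 30.1, 7.21 and 21.99 CPM in dKO 1 to 4. Both put the 8 libraries in the same order, from dKO 3 to control 4, and the ratio of Fcgr3 to Lyz2 counts stayed between 0.0132 and 0.022 while Lyz2 itself varied 12.9-fold. Lyz2 did not pass between genotypes (log2 fold change −1.16 ± 0.70 (SE), edgeR adjusted p = 0.63), nor did Fcgr3 (log2 fold change −0.96 ± 0.64 (SE), edgeR adjusted p = 0.67). Lyz2 has a closely similar neighbour, Lyz1, so its counts are uncertain. Adgre1, the macrophage marker F4/80, was at 5.72, 5.18, 44.4 and 9.97 CPM in controls 1 to 4 and at 16.2, 16.9, 12.4 and 20.2 CPM in dKO 1 to 4, with control 3 far above the other 7. Cd14, the co-receptor for lipopolysaccharide, was likewise highest in control 3, at 17.7 CPM, and lowest in control 2, at 1.55 CPM. Mpeg1, perforin-2, ran the other way, with 2.76 CPM in control 4 and 10.7 CPM in control 2. Csf1r, the receptor that maintains macrophages, was at 0.0729 to 1.86 CPM. Per kilobase, mean levels were 1375 CPM for Lyz2, 16.3 for Fcgr3, 5.05 for Adgre1 and 0.161 for Csf1r.

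Granulocyte markers were high in control 1, control 4 and dKO 3. S100a8, a subunit of calprotectin, was at 13.6, 3.03, 1.97 and 13.95 CPM in controls 1 to 4 and at 1.93, 1.63, 15.5 and 4.90 CPM in dKO 1 to 4. S100a9, its partner subunit, was at 28.4, 6.80, 2.25 and 42.9 CPM in controls 1 to 4 and at 7.31, 5.27, 33.5 and 17.7 CPM in dKO 1 to 4. For each, control 1, control 4 and dKO 3 were the 3 highest libraries. Ngp, a secondary granule protein, was at 10.2, 2.09, 2.60 and 19.1 CPM in controls 1 to 4 and at 4.04, 0.297, 13.6 and 0 CPM in dKO 1 to 4, with no count in dKO 4. Camp, the cathelicidin of the same granules, was at 6.41, 0.942, 0.492 and 8.09 CPM in controls 1 to 4 and at 2.11, 0, 13.8 and 0.613 CPM in dKO 1 to 4. The primary granule genes of immature cells were close to absent, with Elane counted in 2 libraries and Mpo in 3, at no more than 0.879 and 0.469 CPM. Ltf, lactoferrin, lay under 2 CPM in every library and was highest in dKO 3 at 1.85 CPM.

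Of the erythroid markers, Car2 alone had a mean of at least 1 CPM. The globin genes Hba-a1 and Hbb-bs had no count in any library, nor did their copies Hba-a2 and Hbb-bt. Near-identical copies can lose reads in counting, so these counts of 0 are uncertain. Klf1, the erythroid transcription factor, was counted in 7 of 8 libraries with a mean of 0.312 CPM. Car2, carbonic anhydrase 2, was at 4.95, 15.4, 3.02 and 8.85 CPM in controls 1 to 4 and at 2.05, 3.12, 2.23 and 4.22 CPM in dKO 1 to 4. Controls 2 and 4 were highest and the dKO libraries lay low, but control 3 fell within the dKO range (log2 fold change −1.48 ± 0.46 (SE), edgeR adjusted p = 0.24). DESeq2, which called 322 of 11363 genes, gave Car2 an adjusted p of 0.048. Without control 2 and control 4 its log2 fold change was −0.46 (edgeR adjusted p = 0.64). The 5 genes outside the lists most like Car2 over the 8 libraries were Ccr7, Klhl6, Satb1, P2ry10 and Gpr171 (Pearson r of 0.970 to 0.983, among 7245 genes with a mean of at least 5 CPM). Ccr7, the chemokine receptor that guides lymphocytes to lymph nodes, was at 145, 840.5, 78.6 and 369.9 CPM in controls 1 to 4 and at 78.4, 108, 68.7 and 148 CPM in dKO 1 to 4. Ccr7 was picked for its likeness to Car2, so sharing its high libraries followed from that choice. Which cells the Car2 transcripts came from was not tested.

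**Figure D2:**
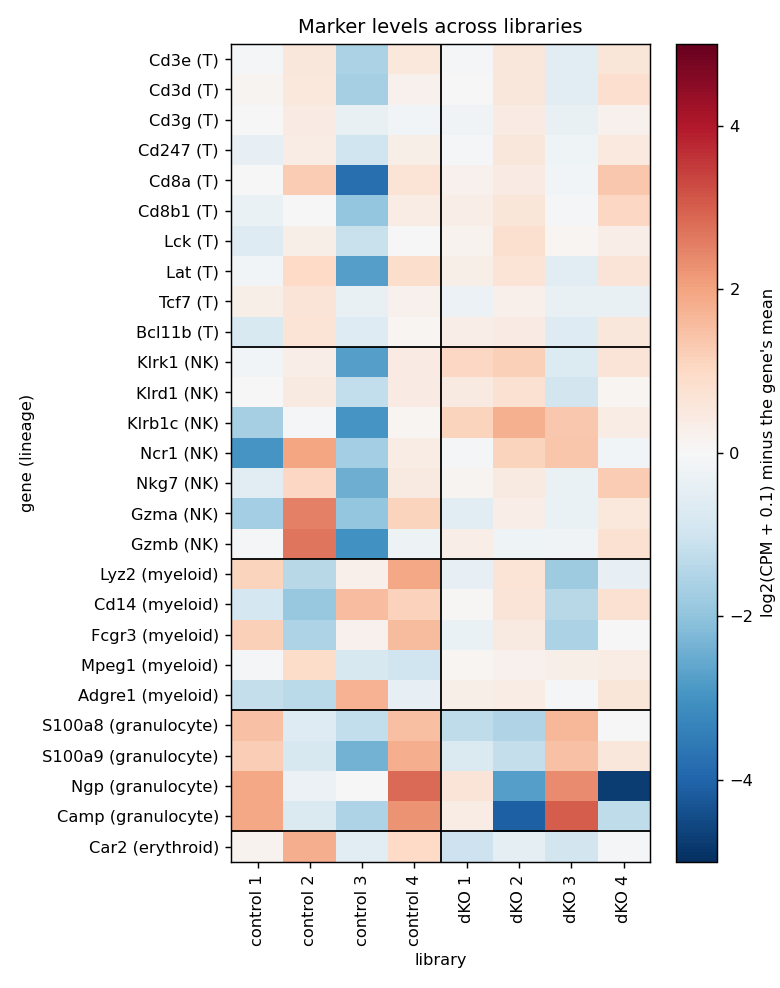
Levels of the 27 markers with a mean of at least 1 CPM (rows, by lineage) in the 8 libraries (columns), as log2(CPM + 0.1) minus the mean of the gene. T and NK rows are lowest mostly in control 3, and granulocyte rows are high in control 1, control 4 and dKO 3.

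Most T and NK markers rose and fell together across libraries, while myeloid and granulocyte markers followed other orders. Over pairs of markers, the median Pearson r of log2 CPM was 0.780 among T markers (45 pairs), 0.724 among NK markers (21 pairs) and 0.748 between T and NK markers (70 pairs, all positive). It was 0.764 among granulocyte markers (6 pairs), 0.0489 among myeloid markers (10 pairs) and −0.206 between myeloid and granulocyte markers (20 pairs). T markers had a median r of −0.0725 with myeloid and −0.114 with granulocyte markers. Between single T and NK markers r ran from 0.0267 to 0.964. With Cd3e it was 0.947 for Nkg7, 0.895 for Klrk1, 0.888 for Klrd1 and 0.802 for Gzmb. It was 0.761 for Gzma, 0.637 for Klrb1c and 0.448 for Ncr1. Over all pairs of 10214 genes with a mean of at least 1 CPM the median r was 0.00159. These pairs share the same 8 libraries and are a description. Control 3 was the lowest library for 7 of 10 T markers and 6 of 7 NK markers, and for 11.7% of all genes with a mean of at least 1 CPM.

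**Figure D3:**
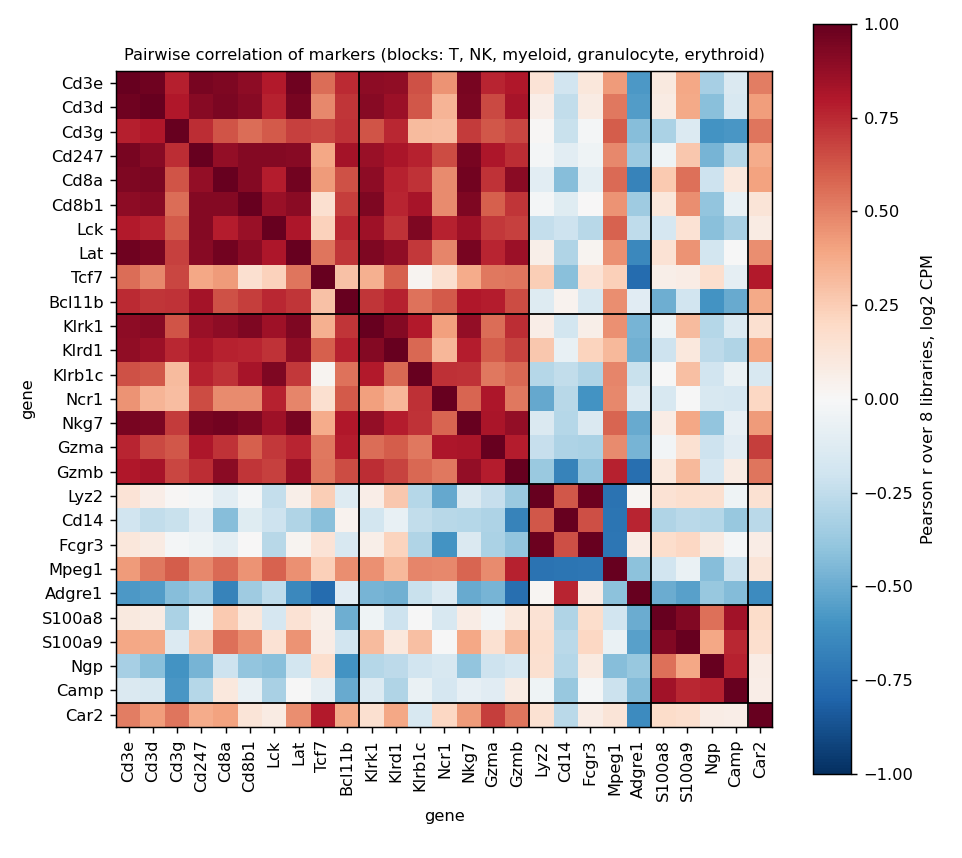
Pearson r over the 8 libraries between all pairs of the 27 markers with a mean of at least 1 CPM, in blocks by lineage. The T and NK blocks are positive throughout, with medians of 0.780, 0.724 and 0.748, and the myeloid block is mixed.

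Between lineages, 1 gene each was compared in 10 pairs over the 8 libraries: Cd3e, Nkg7, Lyz2, S100a8 and Car2. Lyz2 took the place of Csf1r and Car2 that of Hbb-bs, since these were under 1 CPM. Cd3e and Nkg7 were correlated (Pearson r = 0.947, exact permutation p = 0.0016, two-sided, 0.016 after adjustment over the 10 pairs). Spearman's rho was 0.857 (exact permutation p = 0.011, adjusted 0.11). Without control 3 and dKO 3, the libraries farthest from the median of Cd3e, r was 0.808. The correlation no longer passed the adjustment without control 3 (r = 0.823, exact permutation p = 0.030, adjusted 0.30) or without dKO 1 (r = 0.952, exact permutation p = 0.0056, adjusted 0.056). None of the other 9 pairs passed (Pearson r from −0.142 to 0.513, exact permutation p of at least 0.20, two-sided). Lyz2 and S100a8 had r = 0.147 and rho = −0.0238. After subtracting the mean of each genotype, 3 pairs passed, with Car2 now correlated with Nkg7 (r = 0.953, rho = 0.905, exact permutation p = 3.5e-04, adjusted 0.0017) and with Cd3e (r = 0.881, rho = 0.881, exact permutation p = 0.0033, adjusted 0.011). Subtracting the means leaves fewer independent values than libraries, so these p-values are too small. With 4 libraries, no r was computed within a genotype.

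**Figure D4:**
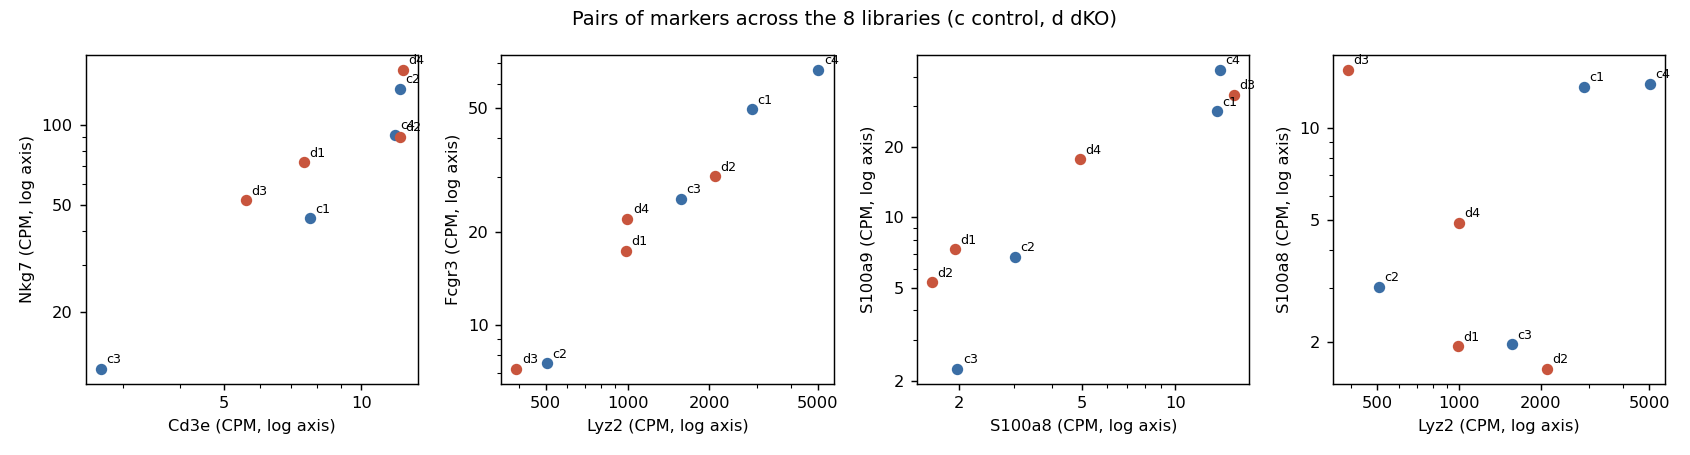
CPM of 4 pairs of markers in the 8 libraries (log axes), with controls in blue (c1 to c4) and dKO libraries in red (d1 to d4). Cd3e with Nkg7, Lyz2 with Fcgr3 and S100a8 with S100a9 line up across both genotypes (r = 0.947, 0.984 and 0.926), whereas Lyz2 with S100a8 does not (r = 0.147).

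Within lineages, 22 relations of a marker with the chosen gene of its lineage were computed. Cd3d with Cd3e (Pearson r = 0.975, rho = 1) and Fcgr3 with Lyz2 (r = 0.984, rho = 1) were the closest, each with an exact permutation p of 2.5e-05 for r and 5.0e-05 for rho, and 2.7e-04 and 5.5e-04 after adjustment over the 22. These are the smallest p-values that 8 libraries can give. Without the 2 libraries farthest from the median, r was 0.811 and 0.970. S100a9 with S100a8 had r = 0.926 and rho = 0.857 (exact permutation p = 0.0021 and 0.011, adjusted 0.0077 and 0.034, r = 0.866 without 2 libraries). Mpeg1 ran against Lyz2 (r = −0.737, rho = −0.738, exact permutation p = 0.036 and 0.046, adjusted 0.049 and 0.084, r = −0.624 without 2 libraries). Adgre1 had an r of 0.0228 with Lyz2, and Tcf7 one of 0.555 with Cd3e. By r, 8 of 9 T, 4 of 6 NK, 2 of 4 myeloid (the negative one of Mpeg1 included) and 2 of 3 granulocyte relations passed the adjustment. By rho, 5 of 9 T, 1 of 6 NK (Gzma), 1 of 4 myeloid and 2 of 3 granulocyte relations passed it. Without the 2 libraries farthest from the median, r fell from 0.875 to 0.528 for Klrk1 and from 0.896 to 0.562 for Cd8b1, and it was at least 0.8 in 3 T, 1 NK, 1 myeloid and 1 granulocyte relation. An r of at least 0.8 was reached by 5 of 9 T markers with Cd3e, against 1.28% of all genes with a mean of at least 1 CPM. It was reached by 3 of 6 NK markers with Nkg7 (1.49% of all genes), 1 of 4 myeloid markers with Lyz2 (1.75%) and 2 of 3 granulocyte markers with S100a8 (0.225%).

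Genes outside the lists that were most like these markers over the 8 libraries were taken from the 7245 genes with a mean of at least 5 CPM. For Cd3e they were Ms4a4b, Fam241a, Sigirr, Csrp1 and Cd7 (r of 0.926 to 0.972), of which Ms4a4b and Cd7 are known from T and NK cells. Ms4a4b was at 197, 243, 35.8 and 219 CPM in controls 1 to 4 and at 159, 249, 114 and 229 CPM in dKO 1 to 4. It was lowest in control 3, as was Cd3e, the gene it was picked to resemble. For Nkg7 they were C1galt1, Fam241a, Nceh1, Ddx25 and Lst1 (0.914 to 0.985). For Lyz2 they were Fancl, Mcemp1, Rac2 and Slpi (0.940 to 0.968), and Slpi, a secreted inhibitor of neutrophil elastase, was at 115, 19.6, 48.2 and 123 CPM in controls 1 to 4 and at 22.02, 65.7, 16.5 and 53.96 CPM in dKO 1 to 4. For S100a8 they were Grhpr, Cnep1r1, Fam76b, Tmsb10 and Scrn2 (0.863 to 0.900). The share of all genes with an r of at least 0.8 to Car2 was 3.21%.

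Between dKO and control, no marker of any lineage passed the test over all genes (edgeR quasi-likelihood, 34 of the 40 tested). Of 11363 genes tested, 0.088% were called, 7 higher (0.0616%) and 3 lower (0.0264%). At an unadjusted p under 0.05 there were 3 markers, Lck, Klrb1c and Car2, of 34 tested, against 10.8% of all genes. The 6 markers outside the test for low counts were Eomes, Elane, Mpo, Hba-a1, Hbb-bs and Klf1. The median log2 fold change was 0.21 over 13 T markers (10 positive), 0.18 over 9 NK markers (5 positive), −0.29 over 6 myeloid markers (2 positive) and −0.34 over 5 granulocyte markers (1 positive), beside −0.02 over all genes tested. Without the filter on low counts the NK median was −0.03. Leaving out 1 library turned the sign for T (−0.08 without control 3) and NK markers (−0.13 without control 3, −0.17 without control 1, −0.06 without dKO 2 and −0.11 without dKO 3). It also did so for myeloid (0.03 without dKO 3) and granulocyte markers (0.27 without control 4).

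**Figure D5:**
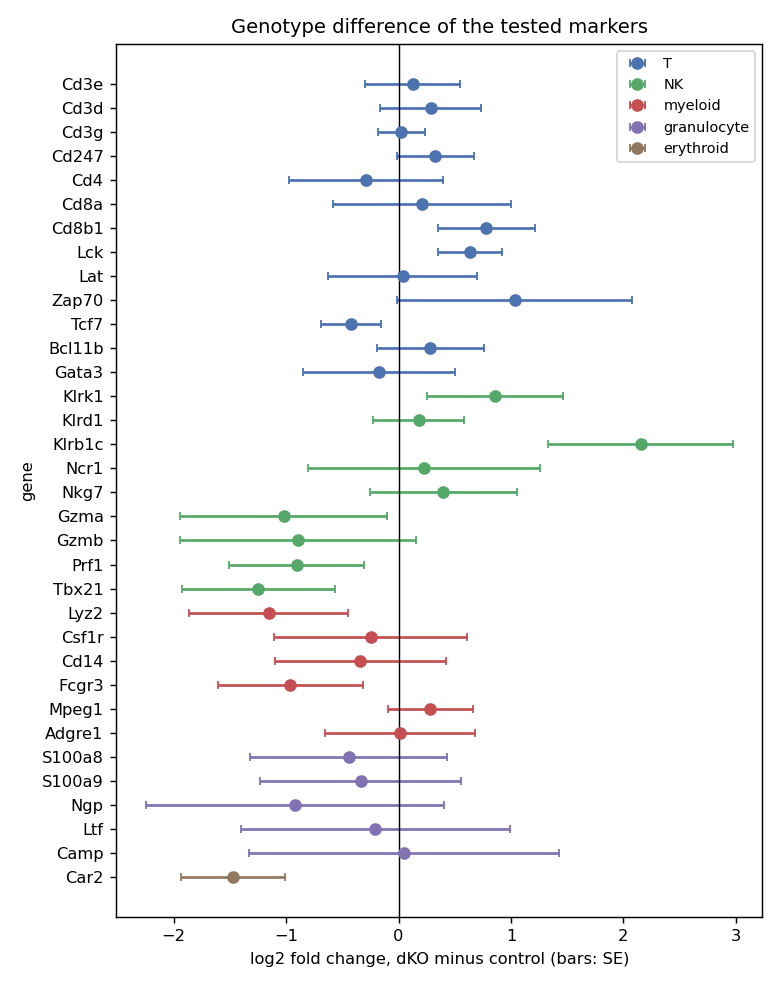
Log2 fold change, dKO minus control, of the 34 tested markers (points, coloured by lineage) with their standard errors (bars). Values lie on both sides of 0 in the T, NK, myeloid and granulocyte lineages, from −1.48 for Car2 to 2.15 for Klrb1c, and none passed over all genes tested.

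Both T and NK medians shifted when a pair of control libraries was removed, up for 1 pair and down for the other. Without control 2 and control 4, the medians were 1.00 for T and 1.69 for NK markers, and no marker was called. Without control 1 and control 3, they were −0.19 and −0.84, and Gzma (−1.92, edgeR adjusted p = 0.023) and Car2 (−2.06, adjusted p = 0.0053) were called lower. That fit called 2 of 35 markers tested, beside 638 of all 11873 genes tested, in either direction. Both pairs were chosen with earlier results of these data known. Control 1 and control 3 were the libraries with the lowest NK sums. Control 2 and control 4 had the highest NK sums among controls (188 and 119 CPM). They also had the highest T sums among controls (300.02 and 239 CPM, against 208 in control 1 and 114 in control 3). The direction of the T and NK shifts, and that it was shared, thus followed from the choice, and these values are a description. Gzma had a log2 fold change of −1.02 (adjusted p = 0.78) with all libraries, 0.20 without control 2 and 1.98 (adjusted p = 0.086) without control 2 and control 4.

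Further genes of the same lineages gave few calls. Of 20 further T cell genes 1 was called higher (0.0616% of all genes tested) and none lower (0.0264%), with 14 positive and 6 negative values. The gene called was Ctla4, an inhibitory receptor also known from B-1a cells (10.6 ± 4.19 CPM in controls against 33.9 ± 6.33 CPM in dKO (SD, 4 mice each), log2 fold change 1.68 ± 0.26 (SE), edgeR adjusted p = 0.045). None was called among 13 of 21 further NK genes tested, 20 of 25 macrophage and monocyte genes, 8 of 20 granulocyte genes or 7 of 20 erythroid genes. Cd2, the most abundant of the T cell genes and one that B cells also express, lay between 1526 and 2344 CPM. Ccl5, a chemokine of NK and memory T cells, was at 26.01, 50.5, 7.53 and 50.9 CPM in controls 1 to 4 and at 40.03, 46.6, 37.7 and 67.1 CPM in dKO 1 to 4, with control 3 lowest as for Nkg7. Pglyrp1, a granule protein of neutrophils, was at 118, 185, 44.3 and 190.4 CPM in controls 1 to 4 and at 97.02, 130.1, 111 and 154 CPM in dKO 1 to 4 and was also lowest in control 3, unlike S100a8. Tyrobp, the signalling adaptor of myeloid and NK receptors, was lowest in control 2, at 87.9 CPM, against 225 to 461 CPM elsewhere. The summed level of the 20 further T cell genes, dominated by Cd2, was 1580 to 2412 CPM among controls and 1663 to 2515 CPM among dKO libraries. The summed level of the 21 NK genes was 14.8 to 89.3 CPM among controls and 59.2 to 114 CPM among dKO libraries. For the 25 macrophage and monocyte genes it was 1954 to 2670 CPM and 1632 to 2203 CPM. The 20 further granulocyte genes summed to 192, 222, 155 and 329 CPM in controls 1 to 4. In dKO 1 to 4 they summed to 149.9, 190.3, 148.8 and 225 CPM. Most of this sum was Pglyrp1, except in control 3. The sum was lowest in dKO 3, where the 7 granulocyte markers were high, with dKO 1 nearly level at 149.9 CPM. All 8 tested granulocyte genes of this list had negative values.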

How the data were processed

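RNA-seq libraries came from sorted bone marrow cells of 4 control and 4 dKO mice, grouped by sample title. Per the labels' protocols, cDNA was made by SMART-seq. Per the submitters' processing notes, Trimmomatic, STAR and featureCounts were used with GRCm39; no version, annotation or strand setting is stated. The authors deposited raw counts per gene; 3 unnamed summary columns were not used. Of counts below 20, 72.7% to 77.3% were even, as when both mates of a pair are counted.

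Genes passing filterByExpr (11363) were TMM-scaled and tested with edgeR 4.0.16 (robust quasi-likelihood, R 4.3.3) on genotype alone, called at a Benjamini-Hochberg adjusted p under 0.05. SE was the log2 fold change divided by the square root of F. log2 CPM used a prior count of 2. Correlations were tested over all 40320 pairings. The labels do not say whether mice shared a litter or sorting day. Libraries of 1 genotype differed well beyond sampling noise (chi-square over degrees of freedom 31.3 to 321.3), so each counted once. On simulated counts the fit called 3.88% of planted 1.5-fold changes, 33.1% of 2-fold and 76.7% of 4-fold changes, over genes of all levels. It called 0.0555% of unchanged genes. Most changes of up to 2-fold would thus be missed. The markers varied more between libraries than all genes (8.32-fold against 2.02-fold in the median). The shares called, that of 4-fold changes included, may therefore be lower for markers. A marker that did not pass is not shown to be unchanged. Seed matches, overlaps and exonic lengths used GENCODE M21 (GRCm38), another build than the counts, so no coordinates of them are given.

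Members and lists were chosen with earlier results of these data known. Values in every library are given for 1 gene per lineage, the 2 next most abundant members and members called or not overlapping; up to 3 abundant genes of each further list and up to 5 genes most like each lineage's gene are named; some items are not reported here. Every other gene given with values was picked after its values were seen. Alternatives were RLE and total-count scaling, no filter, DESeq2 1.42.0, halved counts, a prior count of 0.5, genotype-centred values, a replicate block and leaving out libraries.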

Additional observations from a re-analysis of the deposited data

Results flagged for a closer look

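In 54 groups of 4 libraries (27 markers in each genotype), 4 had a library standing far from the other 3 of its genotype. For normally distributed values chance flags about 1 group in 20. The rate for low CPM values, some of them 0, can be higher and was not computed. Tcf7, the T cell factor TCF1, was at 6.38 CPM in dKO 2 against 4.15 to 4.38 CPM in the other dKO libraries. Gzmb, granzyme B, was at 5.12 CPM in control 2 against 0 to 0.656 CPM in the other controls. Adgre1, F4/80, was at 44.4 CPM in control 3 against 5.18 to 9.97 CPM. Camp, cathelicidin, was at 13.8 CPM in dKO 3 against 0 to 2.11 CPM.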

How the results depend on the processing

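No marker was called under RLE or total-count scaling, no filter, halved counts, the replicate block or with 1 library left out. DESeq2 called 1 of 34 (Car2), beside 322 of all 11363 genes. The fit without control 1 and control 3 called 2 of 35 (Gzma and Car2), beside 638 of all 11873 genes. Control 1 and control 3 had the lowest T and NK sums among controls. The direction of the T and NK values of that fit thus followed from the choice. The number of all genes called was 10, and it was 17 with total counts, 40 without a filter, 322 with DESeq2, 638 without control 1 and control 3, 59 without control 2 and control 4, and 4 to 98 with 1 library left out. With the replicate block it was 9, with 0 markers. Same-numbered controls and dKO libraries had deviations correlated at −0.00890, −0.0709, 0.0615 and 0.149, so the numbers were not taken as pairs. The medians without control 2 and control 4, the controls with the highest T and NK sums, were 1.00 for T, 1.69 for NK and −0.40 for erythroid markers. With 1 library left out they ranged from −0.08 to 0.52 for T, −0.17 to 0.92 for NK, −0.73 to 0.03 for myeloid, −1.62 to 0.27 for granulocyte and −1.72 to −0.50 for erythroid markers, the last resting on 1 or 2 genes. Of the 10 pairs between lineages, 1 passed, 3 after subtracting the genotype mean and 0 to 1 with 1 library left out. Causes were not tested. Elane and Mpo had too few counts at this depth to be tested; with counts halved, Klrb1c was at 2.13 (edgeR adjusted p = 0.27) on the log2 scale and Csf1r at −0.27.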

Other observations

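Markers of cell types outside the 5 lineages were also present. Pf4, a platelet and megakaryocyte chemokine, was at 42.7, 0.404, 19.7 and 44.2 CPM in controls 1 to 4 and at 4.58, 10.8, 9.79 and 19.1 CPM in dKO 1 to 4, high in control 1 and control 4, which were also the libraries highest in Lyz2. Ppbp, another platelet chemokine, was at no more than 0.704 CPM. Hdc, the histamine-producing enzyme of mast cells and basophils, was at 1.82, 3.23, 1.48 and 2.43 CPM in controls 1 to 4 and at 5.04, 15.1, 7.08 and 5.65 CPM in dKO 1 to 4, and its genotypes did not overlap (log2 fold change 1.87 ± 0.39 (SE), edgeR adjusted p = 0.093), as in 6.96% of all genes tested (4% with dKO above). Of the 4 mast cell, basophil and eosinophil genes tested, 2 had all dKO libraries above the controls, Hdc and Il5ra, and none was called. Il5ra, the interleukin-5 receptor chain also known from B-1 cells, was at 34.5, 19.8, 28.5 and 14.2 CPM in controls 1 to 4 and at 86.98, 103, 75.04 and 51.4 CPM in dKO 1 to 4 (log2 fold change 1.71 ± 0.29 (SE), edgeR adjusted p = 0.069). The summed level of the 12 genes listed, most of it Il5ra except in control 4, was 25.7 to 45.5 CPM among controls and 68.9 to 134 CPM among dKO libraries. Cpa3, a mast cell protease, was at 4.74, 0.236, 0 and 16.1 CPM in controls 1 to 4 and at 5.32, 11.95, 4.71 and 10.4 CPM in dKO 1 to 4.

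C1qb, a complement subunit made by tissue macrophages, was picked after its values were seen. It was at 76.7, 36.4, 96.9 and 234 CPM in controls 1 to 4 and at 64.8, 124, 34.8 and 78.5 CPM in dKO 1 to 4, highest in control 4 and lowest in dKO 3 and control 2, as was Lyz2. Control 1, at 2875 CPM of Lyz2 below control 4 alone, was not high for C1qb.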
